A study of Homo sapiens with 20 samples.

Results

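The genes described here are the cullins, the scaffold proteins of the largest group of ubiquitin ligases, and the F-box proteins, which pick the targets for the ligases built on CUL1. They were taken by symbol from the array annotation: every probe set that named exactly 1 gene, where the symbol started with FBXL, FBXO or FBXW or was CUL followed by a number, with 1 gene left out. This gave 69 genes with 158 probe sets, of 19353 genes with 38070 such probe sets on the array. There were 8 cullins, 18 FBXL genes (leucine-rich repeats), 10 FBXW genes (WD40 repeats) and 33 FBXO genes (other domains). Of the 69, 64 code for protein, 3 are transcribed pseudogenes (FBXL21P, FBXL9P and FBXW4P1) and 2 are long non-coding RNAs whose symbols start the same way (FBXL19-AS1 and FBXO38-DT).

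Ubiquitin is a small protein that marks other proteins, most often for destruction by the proteasome. In a cullin-RING ligase the cullin holds a RING protein at one end, which brings the ubiquitin-carrying enzyme, and a substrate receptor at the other end. CUL1 binds its receptors, the F-box proteins, through the adaptor SKP1, whereas CUL3 uses BTB-domain proteins, CUL2 and CUL5 use elongins with VHL-box or SOCS-box proteins, and CUL4A and CUL4B use DDB1. The attachment of NEDD8 to the cullin switches the ligase on, and the COP9 signalosome removes NEDD8 again. ZFP36, also called tristetraprolin, binds AU-rich elements in mRNA through its tandem zinc fingers and speeds the decay of the mRNAs that it binds.

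The arrays compared 4 groups of 5 samples of HEK293 cells, a line derived from human embryonic kidney. The induced group was the Flp-In T-REx line that carries an EGFP-ZFP36 fusion gene, given doxycycline at 1 µg/ml for 16 h and sorted for green fluorescence. The mock group was the same line given water and sorted with fluorescent cells excluded, and the parental dox and parental vehicle groups were HEK293 cells without the fusion gene, given doxycycline or water. The fusion gene is transcribed from the inducible promoter of this line rather than from the promoter of ZFP36. Flasks of 1 treatment were pooled, and samples were collected on separate days. Before treatment the parental cells were diluted less and grown for fewer days than the EGFP-ZFP36 cells. Line and culture handling can therefore not be told apart between the lines. Doxycycline-treated flasks of the EGFP-ZFP36 line were less dense and held more floating and rounded cells, so induced and mock cells also differed in sort gate and density, and these cannot be told apart from the fusion protein.

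Values were log2 hybridization levels after GCRMA normalization by the authors, and each gene was read from its brightest probe set over all 20 arrays. A level near 2.19, the lowest value on the arrays, is background, and dim probe sets could also share a higher value of their own. The levels of different genes come from different probes and were not set against each other. Every array sums over many cells, so fewer cells that express a gene and less RNA per cell cannot be told apart. ZFP36 itself read 4.56 to 5.78 in induced and 4.85 to 5.92 in mock arrays, above the 3.03 to 4.54 of parental dox and 2.77 to 4.31 of parental vehicle arrays. No source used here says whether its probe set covers the fusion transcript, so this level does not check the induction. The spiked poly-A controls were 0.362 higher in induced than in mock arrays (exact permutation test, two-sided, p = 0.0238) and the hybridization controls 0.117 higher (p = 0.143). Of the HEK293 markers, VIM and NEFL were high on every array (11.98 to 15.33), but NEFM read 12.27 in parental vehicle, 3.87 in mock and 5.81 in induced arrays on average, PAX2 averaged 4.86 in induced and 2.59 to 2.77 in the other arrays, and LHX1 was at background. The summed level of this list was 41.2 to 42.0 in induced, 36.3 to 36.8 in mock, 42.7 to 43.7 in parental dox and 42.3 to 43.5 in parental vehicle arrays. The 5 blood-cell markers with a probe set were at background. Of 8 fibroblast and endothelial markers, 6 stayed under 4.5 on every array, and COL1A1 and COL3A1 were 2.31 and 3.08 higher in induced than in mock arrays. Summed, these 8 markers ranged from 30.1 to 30.7 in induced, 24.7 to 25.8 in mock, 25.9 to 27.1 in parental dox and 26.8 to 27.8 in parental vehicle arrays, and the part of the spiked controls and of these marker levels in the results was not tested.

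ZFP36 binding sites in the mRNAs of these genes were read from the part of the study's table of PAR-CLIP sites held here (1985 sites), a method that crosslinks RNA to a tagged protein and sequences the bound fragments. The experiment used FLAG/HA-tagged ZFP36 in HEK293 cells, not the EGFP fusion. In this part, sites lay in 2 of the genes, FBXW11 and FBXO5. These sites are shown because the study assigned them to ZFP36 and they can be set beside the array values. The rest of the study's sites were not read. The study reported that sites outside the 3′ UTR, introns included, added no independent explanation of the mRNA changes after induction. It also found T-to-C changes, the trace of crosslinking, more frequent and more specific in 3′ UTR sites than in introns or coding sequence. FBXW11 (also called beta-TrCP2) recognises phosphorylated beta-catenin and IkappaB. FBXO5 (EMI1) is an inhibitor of the anaphase-promoting complex. All 4 sites lie on the minus strand and are written as DNA, 5′ to 3′, in genome build hg19. Capitals mark the ZFP36 motif TTATTTATT, or where that is absent ATTTA, or else the shorter TATT, searched on the transcript strand only. TTATTTATT contains both of the shorter motifs.
FBXW11 intron, chr5:171423811-171423833: aaaaatattttcccTTATTTATT
FBXO5 3′ UTR, chr6:153292081-153292105: tttaaaattctcaatacaaatcaaa
FBXO5 3′ UTR, chr6:153292125-153292145: acaacctcttaaaaTATTttt
FBXO5 coding sequence, chr6:153292279-153292298: atctctTATTaaatcaattg
The FBXW11 site ended in the full nonamer, and 6.21% of the 1304 sites of 20 to 25 bases held it. Of the FBXO5 sites, 1 in the 3′ UTR had none of the 3 motifs and the others had TATT alone. Of sites of that length, 45.6% held ATTTA and 77.5% held TATT.

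To ask which of the genes were measured above background, a gene was tested when its mean exceeded 4.5 in at least 1 group, as it did for 50 of the 69 genes and for 10834 of all genes. Of the 50, 46 exceeded 4.5 in all 4 groups, and these included all 8 cullins except CUL9, which averaged 4.46 in parental dox arrays. FBXO10, below 4.5 in mock arrays, FBXL6, above 4.5 in parental vehicle arrays only, and FBXO24, above 4.5 in induced arrays only, were the others that passed through some groups only. FBXO24 was named after its values were seen. The 19 genes left had no group mean above 3.49, and 6 of them read the same background value on all 20 arrays. Under the filter, FBXL13 read 2.40, 2.73, 2.90, 3.51 and 2.41 in induced arrays and 2.19 on the other 15 arrays. FBXO36 read 2.20, 2.68, 2.53, 3.48 and 2.97 in induced arrays and also 2.19 on the other 15. These last 2 genes, named after their values were seen, left background in induced arrays alone, at levels too low to be tested. Of the 50 genes tested, 11 read the same value, to 6 digits, on at least 2 arrays. FBXW8 (also named after its values were seen) read 6.13 on 8 arrays (3 induced, 1 mock and 4 parental), so some levels above 4.5 repeat like the background value does. CUL3, also among the 11, matched on 2 arrays only, at 12.75, which is not a dim level.

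Between induced and mock cells, 32 of the 50 genes tested differed at a Bonferroni-adjusted p under 0.01 (limma, adjusted over all 10834 genes), and 13 of them were lower and 19 higher in induced cells. The background was high: 51.9% of all genes tested passed, 23.1% lower and 28.8% higher. The median log2 difference was 0.35 over the 50 genes and 0.20 over all genes tested. The ranges of the 2 groups did not overlap for 40 of the 50 genes, against 80.0% of all genes. Of the 8 cullins 4 fell and 2 rose by their brightest probe sets (median -0.51). With the mean of all probe sets the differences of CUL1, CUL3 and CUL4A turned over. Of 12 FBXL genes 4 fell and 5 rose (median 0.03). Among FBXO genes 4 of 23 fell and 8 rose (median 0.41), and among FBXW genes 1 of 7 fell and 4 rose (median 0.77).

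**Figure D1:**
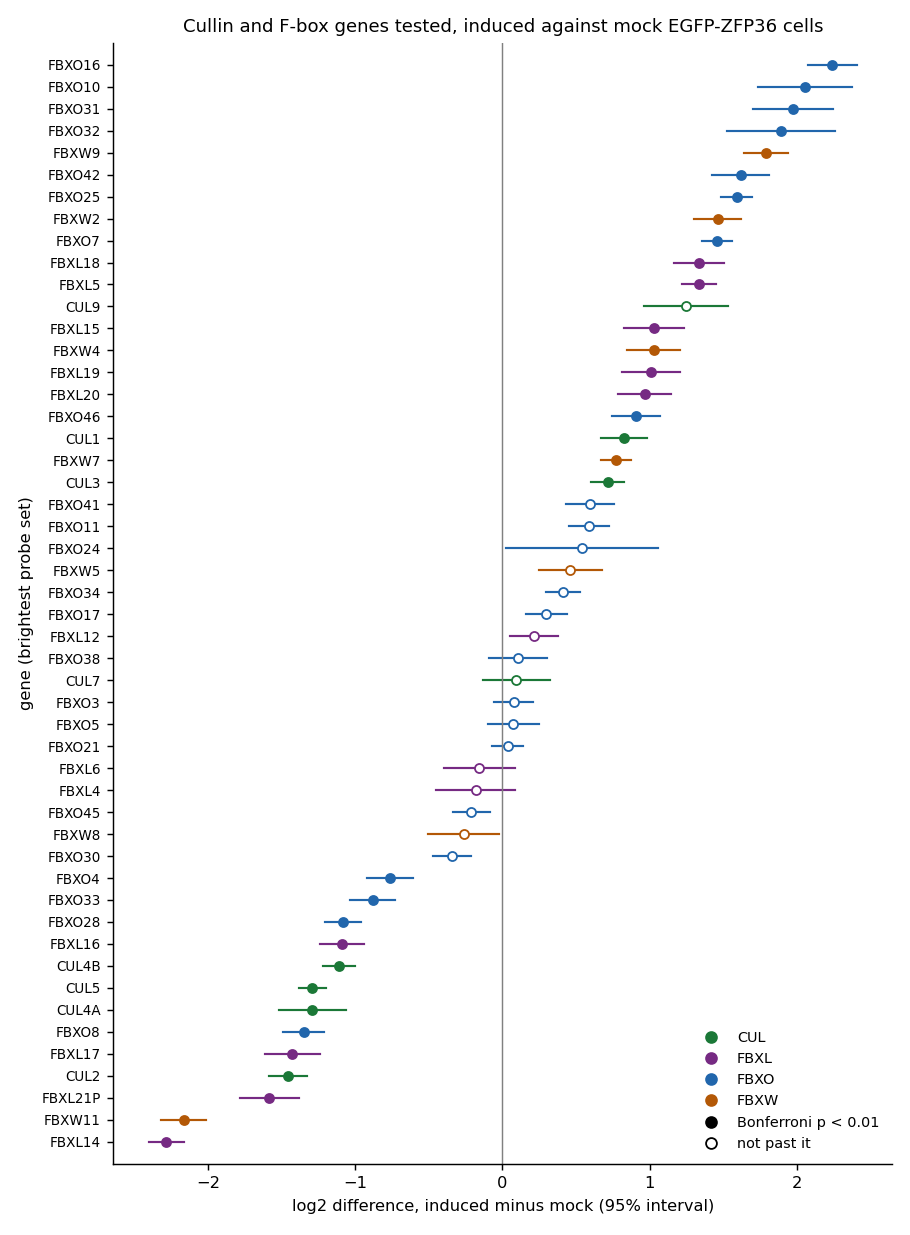
Log2 difference, induced minus mock, of the 50 cullin and F-box genes tested, with 95% intervals from limma. Filled points passed a Bonferroni-adjusted p of 0.01 and colours give the family. FBXL14 lies lowest at -2.29 and FBXO16 highest at 2.24, and open points lie between -0.34 and 1.25.

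CUL2, CUL4A, CUL4B and CUL5 fell after induction by their brightest probe sets. CUL2, the scaffold of the VHL ligase, read 9.20, 9.17, 9.22, 9.32 and 9.18 in induced and 10.76, 10.70, 10.59, 10.78 and 10.54 in mock arrays, a 2.74-fold fall (1.46 ± 0.058 SE on the log2 scale, limma, Bonferroni-adjusted p = 8.04e-07). Parental cells lay between, at 10.04, 10.12, 10.06, 9.98 and 10.17 with doxycycline and 10.13, 10.09, 10.13, 9.90 and 10.00 with vehicle. No CUL2 value of the induced group reached the lowest of any other group. CUL5, which carries SOCS-box receptors, read 10.23, 10.24, 10.16, 10.23 and 10.32 in induced and 11.54, 11.52, 11.48, 11.58 and 11.53 in mock arrays, 2.45-fold lower (adjusted p = 1.08e-07), with 11.66 to 11.83 in parental dox and 11.69 to 11.85 in parental vehicle arrays. CUL4B read 10.54, 10.36, 10.40, 10.38 and 10.44 in induced and 11.58, 11.58, 11.52, 11.55 and 11.43 in mock arrays, 2.16-fold lower (adjusted p = 2.51e-06). CUL4B was higher still in parental cells, at 12.13 to 12.50 with doxycycline and 12.24 to 12.31 with vehicle, so the induced, mock and parental ranges did not overlap. CUL4A, which like CUL4B works with DDB1, read 11.47, 11.22, 11.45, 11.05 and 11.70 in induced and 12.68, 12.69, 12.63, 12.61 and 12.75 in mock arrays, 2.45-fold lower (adjusted p = 0.00112). Here the mock arrays stood above all others, since parental cells read 10.99 to 11.42 with doxycycline and 10.97 to 11.47 with vehicle, which overlapped the induced range.

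CUL1 and CUL3 rose by their brightest probe sets. CUL1, the scaffold of the ligases that use F-box proteins, read 11.66, 11.54, 11.53, 11.66 and 11.48 in induced and 10.89, 10.80, 10.73, 10.79 and 10.52 in mock arrays, 1.77-fold higher (0.83 ± 0.070 SE, adjusted p = 0.00208). Parental arrays of CUL1 read 11.54 to 11.73 with doxycycline and 11.30 to 11.74 with vehicle, so the mock group was the one that stood apart. CUL3, which works with BTB proteins such as KEAP1, read 13.44, 13.49, 13.36, 13.44 and 13.48 in induced and 12.82, 12.75, 12.70, 12.75 and 12.59 in mock arrays, 1.64-fold higher (adjusted p = 0.000354), with 12.59 to 12.77 and 12.54 to 12.75 in the parental groups. CUL9, also called PARC, a cytoplasmic partner of p53, averaged 6.79 ± 0.17 in induced and 5.55 ± 0.27 in mock arrays (mean ± SD, n = 5). Its ranges did not overlap, but its adjusted p of 0.0145 missed the threshold. It passed without mock replicate 5 (limma, Bonferroni-adjusted p = 0.00917), while leaving out any other single array gave 0.0219 to 0.0894. CUL7, which pairs with FBXW8, averaged 6.19 ± 0.22 and 6.10 ± 0.13, a difference of 0.09 with a 95% interval of -0.13 to 0.32.

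Other probe sets of CUL1, CUL3 and CUL4A moved against the brightest one. Taken probe set by probe set, 100 probe sets of these genes were tested, and 26 fell and 24 rose between mock and induced cells, against 21.8% and 22.1% of all 18639 single-gene probe sets. Opposite calls within 1 gene occurred in 3 of the 28 genes with at least 2 probe sets tested, and in 3.66% of all such genes. For CUL3, probe set 201370_s_at read 6.78, 6.47, 6.48, 6.29 and 6.45 in induced and 10.53, 10.57, 10.59, 10.57 and 10.63 in mock arrays, a fall of 16.9-fold (adjusted p = 9.02e-10 over all probe sets tested). Probe set 201372_s_at of CUL3 fell as well, from 5.63 ± 0.20 to 2.81 ± 0.42 (SD, n = 5), at least 2.19-fold measured against the filter level of 4.5 (adjusted p = 0.000272). So 2 of the 3 CUL3 probe sets fell while the brightest, 201371_s_at, rose.

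For CUL1, probe set 238509_at read 4.29, 4.0, 4.41, 4.42 and 4.81 in induced and 5.99, 6.38, 6.11, 6.44 and 6.16 in mock arrays, 3.56-fold lower (adjusted p = 0.00123), against the rise of the brightest probe set. In 6 parental arrays this probe set gave exactly the same value, 5.63. For CUL4A, where the brightest probe set fell, 227757_at read 7.41, 7.66, 7.28, 7.49 and 7.17 in induced and 6.30, 6.21, 6.25, 6.0 and 5.76 in mock arrays, 2.46-fold higher (adjusted p = 0.00815). The remaining CUL4A probe sets, 201423_s_at and 232466_at, differed by 0.39 and 0.88 without passing. With the mean of all probe sets in place of the brightest, CUL3 fell by 2.06 (adjusted p = 3.32e-07), and the differences of CUL1 (-0.50) and CUL4A (0.32) turned over and did not pass, so the direction given for these 3 cullins holds for the named probe set only. For CUL2 both probe sets fell, by 2.97 (203078_at) and 1.46 (203079_s_at). CUL4B fell by its brightest probe set, but 215997_s_at read 0.78 higher without passing (adjusted p = 0.0605). CUL5 fell by its brightest probe set, and 203533_s_at and 230393_at differed by -0.95 and 0.02 without passing.

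A further 3 genes, chosen after their values were seen, had probe sets that parted without opposite calls. FBXO3 showed 0.08 by its brightest probe set (218432_at, not called), yet 238686_at read 3.92, 3.05, 3.65, 3.53 and 2.85 in induced and 7.57, 7.51, 7.67, 7.52 and 7.48 in mock arrays, at least 8.29-fold lower against the filter level (adjusted p = 3.22e-06). FBXL4, which acts in mitochondrial maintenance, read -0.18 by its brightest probe set (209943_at, not called) and fell by 2.21 and 2.85 by 235450_at and 236994_at (adjusted p = 0.000133 and 2.09e-06). FBXO32 rose by its brightest probe set only: 225328_at differed by -0.05 and 241763_s_at by -1.15, neither called.

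Of the F-box genes tested, FBXL14 and FBXW11 fell most. FBXL14, which directs the turnover of the transcription factor SNAI1, read 9.98, 9.85, 10.02, 9.93 and 10.11 in induced and 12.31, 12.33, 12.24, 12.23 and 12.23 in mock arrays, 4.88-fold lower (2.29 ± 0.054 SE, adjusted p = 2.85e-09). Parental cells read 10.32 to 10.74 with doxycycline and 10.52 to 10.71 with vehicle, so mock cells stood above both and induced cells below both. FBXW11, the gene with the intronic nonamer site, read 8.74, 8.58, 8.35, 8.55 and 8.47 in induced and 10.71, 10.72, 10.64, 10.66 and 10.80 in mock arrays, 4.49-fold lower (adjusted p = 7.88e-08). Here mock and parental cells lay together (10.51 to 10.80 with doxycycline, 10.53 to 10.64 with vehicle) and the induced arrays alone were low. A weaker FBXW11 probe set, 209456_s_at, differed by -0.28 and did not pass. FBXO5, with 3 sites, read 12.61, 12.72, 12.77, 12.37 and 12.68 in induced and 12.60, 12.45, 12.56, 12.47 and 12.69 in mock arrays, a difference of 0.07 with a 95% interval of -0.10 to 0.25, and the ranges overlapped.

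FBXL17, FBXO8 and the pseudogene FBXL21P fell as well. FBXL17, which removes wrongly paired BTB-domain dimers, read 7.13, 6.98, 7.31, 7.18 and 6.85 in induced and 8.58, 8.48, 8.42, 8.47 and 8.64 in mock arrays, 2.69-fold lower (adjusted p = 4.62e-05), and its 2 weaker probe sets, under 4.5 on every induced array, fell at least 4.0-fold (238174_at) and at least 2.63-fold (244360_at) against the filter level (adjusted p = 0.00468 and 9.05e-06). All tested probe sets of FBXL17 therefore moved one way. FBXO8 read 7.90, 7.73, 8.03, 7.91 and 7.73 in induced and 9.32, 9.16, 9.22, 9.18 and 9.18 in mock arrays, 2.55-fold lower (adjusted p = 4.67e-06). FBXL21P read 8.25, 8.13, 7.84, 7.77 and 8.01 in induced and 9.67, 9.46, 9.64, 9.53 and 9.64 in mock arrays, 3.0-fold lower (adjusted p = 3.76e-05). By this probe set parental cells, at 7.16 to 7.60 and 7.13 to 7.74, were below both. A weaker FBXL21P probe set, 1553500_at, averaged 6.52 in induced, 8.25 in mock, 6.41 in parental dox and 6.36 in parental vehicle arrays. Its induced and parental ranges overlapped. The other 4 falls ranged from 0.76 to 1.09 on the log2 scale.

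The largest rise was that of FBXO16, which read 8.44, 8.25, 8.41, 8.52 and 8.27 in induced and 5.95, 6.11, 6.10, 6.20 and 6.31 in mock arrays, 4.73-fold higher (2.24 ± 0.076 SE, adjusted p = 1.34e-07). Parental cells stayed at 5.10 to 5.66 with doxycycline and 5.02 to 5.67 with vehicle, below both. FBXO10 read 6.36, 6.65, 6.20, 6.37 and 6.80 in induced and 4.02, 4.70, 4.30, 4.61 and 4.45 in mock arrays, 4.16-fold higher (adjusted p = 0.000278), and the mock mean lay under the filter level. FBXO31, a receptor for cyclin D1 after DNA damage, read 9.44, 9.47, 9.21, 9.37 and 9.11 in induced and 7.52, 7.21, 7.41, 7.62 and 6.96 in mock arrays, 3.94-fold higher (adjusted p = 8.01e-05). For FBXO10 and FBXO31 parental cells lay between induced and mock cells, at 5.38 to 5.62 and 8.34 to 8.52 with vehicle. FBXO32 (atrogin-1), known for its induction in muscle wasting, read 8.27, 7.70, 7.21, 8.03 and 8.02 in induced and 5.88, 6.12, 5.98, 5.89 and 5.88 in mock arrays, 3.72-fold higher (adjusted p = 0.00265). Its brightest probe set gave the same value, 5.87, on 5 parental arrays. FBXO25, the closest relative of FBXO32, read 9.60, 9.73, 9.68, 9.73 and 9.60 in induced and 8.01, 8.11, 8.15, 8.05 and 8.08 in mock arrays, 3.01-fold higher (adjusted p = 3.90e-08). Parental cells were lower again for FBXO25, at 7.27 to 7.59 and 7.38 to 7.60.

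The WD40-repeat genes FBXW9 and FBXW2 rose from levels that mock and parental cells shared. FBXW9 read 9.32, 9.14, 9.21, 9.28 and 9.23 in induced and 7.51, 7.54, 7.22, 7.56 and 7.39 in mock arrays, 3.46-fold higher (adjusted p = 5.45e-07), with 7.11 to 7.75 and 7.21 to 7.47 in parental cells. FBXW2 read 12.23, 12.28, 12.31, 12.19 and 12.57 in induced and 10.84, 10.94, 10.86, 10.76 and 10.87 in mock arrays, 2.76-fold higher (adjusted p = 7.21e-06), with 10.88 to 11.21 and 10.88 to 11.15 in parental cells. FBXO42 followed the same pattern, at 9.30, 9.21, 9.26, 9.42 and 9.18 in induced and 7.56, 7.98, 7.51, 7.64 and 7.59 in mock arrays, 3.07-fold higher (adjusted p = 1.77e-05), with 7.46 to 7.73 and 7.57 to 7.98 in parental cells. This held for the brightest probe set: 221812_at and 47773_at of FBXO42 differed by 0.20 and 0.27 between induced and mock cells without passing, and were 0.72 (not called) and 0.73 (adjusted p = 0.00285) higher in mock than in parental vehicle cells. Of the other FBXW2 probe sets 218941_at rose by 1.44 and 235195_at differed by 0.37 without passing. Among the 11 other rises, which ranged from 0.72 to 1.46, 3 F-box genes with well-known targets were named after their values were seen. FBXO7, which acts with parkin in the clearance of mitochondria, averaged 12.29 ± 0.07 in induced and 10.83 ± 0.03 in mock arrays (SD, n = 5, adjusted p = 5.50e-08). FBXL5, the iron sensor that controls IRP2, averaged 11.67 ± 0.08 and 10.33 ± 0.07 (adjusted p = 6.51e-07). FBXW7, the receptor for cyclin E, MYC, NOTCH and JUN, averaged 10.95 ± 0.07 and 10.18 ± 0.04 (adjusted p = 4.89e-05).

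The 18 genes that did not pass ranged from -0.34 (FBXO30) to 1.25 (CUL9). Of these, CUL9 and FBXO11, a receptor for BCL6 (named after its values were seen), came nearest, with adjusted p = 0.0145 and 0.0164. FBXO17 read 9.99, 9.90, 10.09, 10.08 and 9.90 in induced and 9.66, 9.73, 9.65, 9.85 and 9.58 in mock arrays, a difference of 0.30 that did not pass although the ranges did not overlap. Of the 32 calls, 6 were lost in 7 to 9 of the 10 fits that left out 1 array, and for these the highest adjusted p was 0.0152 (CUL1), 0.0230 (FBXL15), 0.0201 (FBXL19), 0.0132 (FBXL20), 0.0192 (FBXO32) and 0.0350 (FBXO4). Other than CUL1 and FBXO32 they were named after their values were seen. Their directions held in each case. With levels centred on the poly-A controls 25 genes passed, 12 higher and 13 lower. With the mean of all probe sets only 43 genes were tested, and 26 passed, 13 higher and 13 lower.

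The parental cells were included to show what doxycycline does without the fusion gene. In them no cullin or F-box gene passed the threshold, and neither did any other gene (0.0% of 10834 genes, limma). At an unadjusted p under 0.05 there were 4 of the 50 genes, CUL9, FBXL6, FBXO34 and FBXO42, against 2.22% of all genes. Differences ran from -0.37 (CUL9) to 0.27 (FBXO21, named after its value was seen), with a median of 0.01. The smallest p was that of FBXL6, a gene near the filter level, which read 4.38, 4.32, 3.99, 4.46 and 4.48 with doxycycline and 4.63, 4.51, 4.89, 4.39 and 4.73 with vehicle (unadjusted p = 0.0219). These ranges overlapped. FBXL6 passed the filter only through its vehicle group (mean 4.63), the higher group of this comparison, so its difference is not independent of the filter. No gene of the 50 had parental ranges that did not overlap, against 0.203% of all genes tested. For FBXW11 the interval of the parental difference was -0.10 to 0.15, for FBXL14 -0.21 to 0.14 and for CUL2 -0.11 to 0.16.

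Whether the difference between doxycycline and water was the same in the 2 lines was tested as an interaction over all 20 arrays. In the EGFP-ZFP36 line this difference also held sort gate and cell density, which cannot be told apart from the fusion protein. For 30 of the 50 genes the difference between the lines passed, 11 with a lower and 19 with a higher difference in the EGFP-ZFP36 line, against 47.9% of all genes (22.1% and 25.8%). FBXL14 (-2.25 ± 0.098 SE, adjusted p = 1.74e-11) and FBXW11 (-2.19, adjusted p = 8.48e-12) had the largest negative interactions, and FBXO16 (2.19, adjusted p = 2.53e-07) and FBXO10 (2.11, adjusted p = 6.24e-07) the largest positive ones. CUL9 passed here (1.62 ± 0.22 SE, adjusted p = 0.00439), with a negative difference in parental and a positive one in EGFP-ZFP36 cells. CUL1 (0.74, adjusted p = 0.0175) and FBXL16 (-0.95, adjusted p = 0.596) did not pass. CUL1 passed once parental vehicle replicate 4, its lowest array of that group, was left out (adjusted p = 0.000821). Leaving out any other single array gave CUL1 an adjusted p of 0.0143 to 0.0591. Of the 20 fits that left out 1 array, the call was lost in 17 for FBXL17 (highest adjusted p = 0.0345), in 9 for CUL9 (highest adjusted p = 0.0165) and in 6 for FBXL19 (highest adjusted p = 0.0112). Centring on the poly-A controls left 7 interactions, and centring on the hybridization controls left 21, of which 11 were positive and 10 negative.

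**Figure D2:**
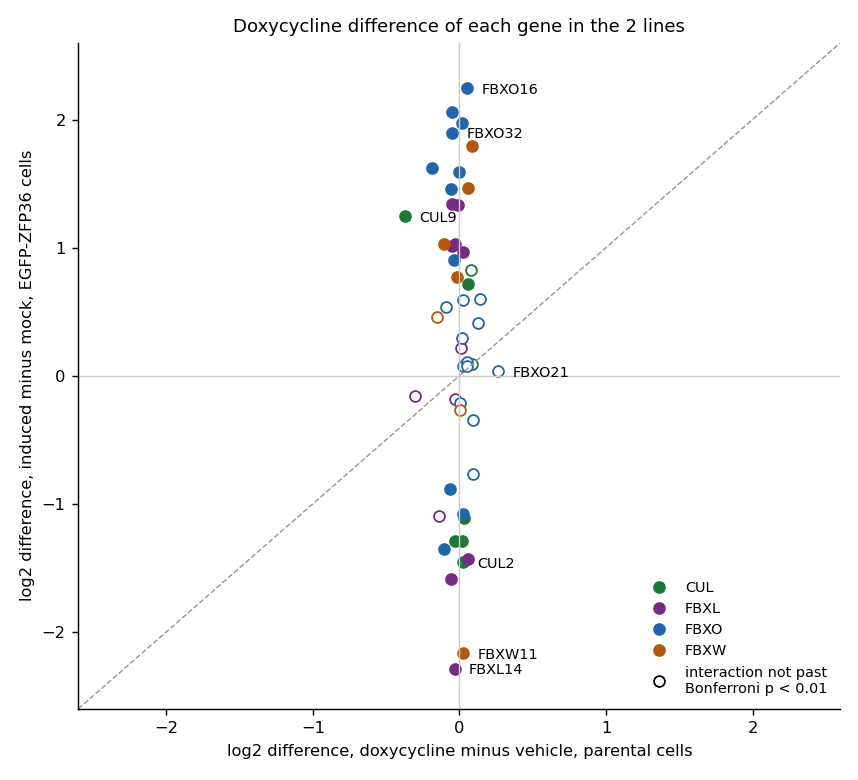
Log2 difference between doxycycline and water for each of the 50 genes tested, in parental cells (horizontal) and in the EGFP-ZFP36 line (vertical). Filled points passed the interaction test and the dashed line marks equal differences. Parental values stay between -0.37 and 0.27, while those of the EGFP-ZFP36 line run from -2.29 to 2.24.

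Mock cells of the EGFP-ZFP36 line differed from parental vehicle cells in 11 of the 50 genes, 4 lower and 7 higher, against 24.0% of all genes tested (10.9% lower, 13.2% higher). Line and culture handling cannot be told apart in this comparison. The ranges of mock and parental vehicle arrays did not overlap for 24 of the 50 genes, against 63.3% of all genes. FBXL16, an F-box protein reported to bind PP2A, read 8.92, 9.04, 9.20, 8.99 and 9.07 in mock and 5.61, 5.40, 5.80, 5.07 and 5.53 in parental vehicle arrays, 11.8-fold higher (adjusted p = 1.36e-07). FBXL16 fell 2.13-fold on induction, to 8.11, 7.96, 7.97, 7.80 and 7.93, but stayed above every parental array. FBXL21P (2.12 higher in mock than in parental vehicle cells, adjusted p = 5.24e-06), FBXO17 (1.93 higher, adjusted p = 6.22e-06) and FBXL14 (1.64 higher, adjusted p = 3.14e-08) followed. FBXO17 read 7.97, 7.72, 7.76, 7.47 and 7.91 in parental vehicle arrays, so both groups of the EGFP-ZFP36 line lay above it. CUL4A (1.46), FBXO4 (1.48) and FBXO25 (0.64) were the remaining genes that were higher in mock cells. For CUL4A this held for 3 of 4 probe sets, and 227757_at differed the other way (-1.05, adjusted p = 0.102, not called).

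Lower in mock than in parental vehicle cells were CUL4B (by 0.75, adjusted p = 4.17e-05), FBXL12 (by 0.74, adjusted p = 0.000708), FBXO34 (by 0.64, adjusted p = 0.00170) and FBXO30 (by 0.63, adjusted p = 0.00234). FBXL12 read 9.11, 9.07, 8.85, 9.06 and 8.98 in mock and 9.72, 9.78, 9.84, 9.69 and 9.75 in parental vehicle arrays. FBXO34 read 9.06, 9.23, 9.13, 9.19 and 9.12 in mock and 9.90, 9.85, 9.76, 9.72 and 9.72 in parental vehicle arrays. FBXO30 read 9.43, 9.30, 9.18, 9.41 and 9.32 in mock and 9.95, 10.01, 9.90, 9.95 and 9.99 in parental vehicle arrays. In none of the 3 genes did the ranges overlap. The comparison of mock with parental vehicle cells uses the same mock arrays as that of induced with mock cells, so 1 set of mock values enters both. FBXL14, FBXL16, FBXL21P, CUL4A and FBXO4 were higher in mock than in parental cells and lower in induced than in mock cells, and CUL4B was lower in both comparisons, each by its brightest probe set. FBXO31 (adjusted p = 0.0131) and FBXO10 (adjusted p = 0.0297), 1.09 and 1.07 below parental vehicle cells, did not pass. Of the 10 fits that left out 1 array, the call was lost in 8 for FBXO25 (highest adjusted p = 0.0169), 6 for FBXO30 (0.0173), 5 for FBXO4 (0.0121) and 3 for FBXO34 (0.0132). All 4 were lost without parental vehicle replicate 2, which left 7 calls, and without parental vehicle replicate 4 CUL1 (adjusted p = 0.00578) and FBXL19 (adjusted p = 0.00994) were called lower. The calls were 2 lower and 6 higher after centring on the hybridization controls, 0 lower and 4 higher after the poly-A controls, and 7 lower and 7 higher after the array medians.

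**Figure D3:**
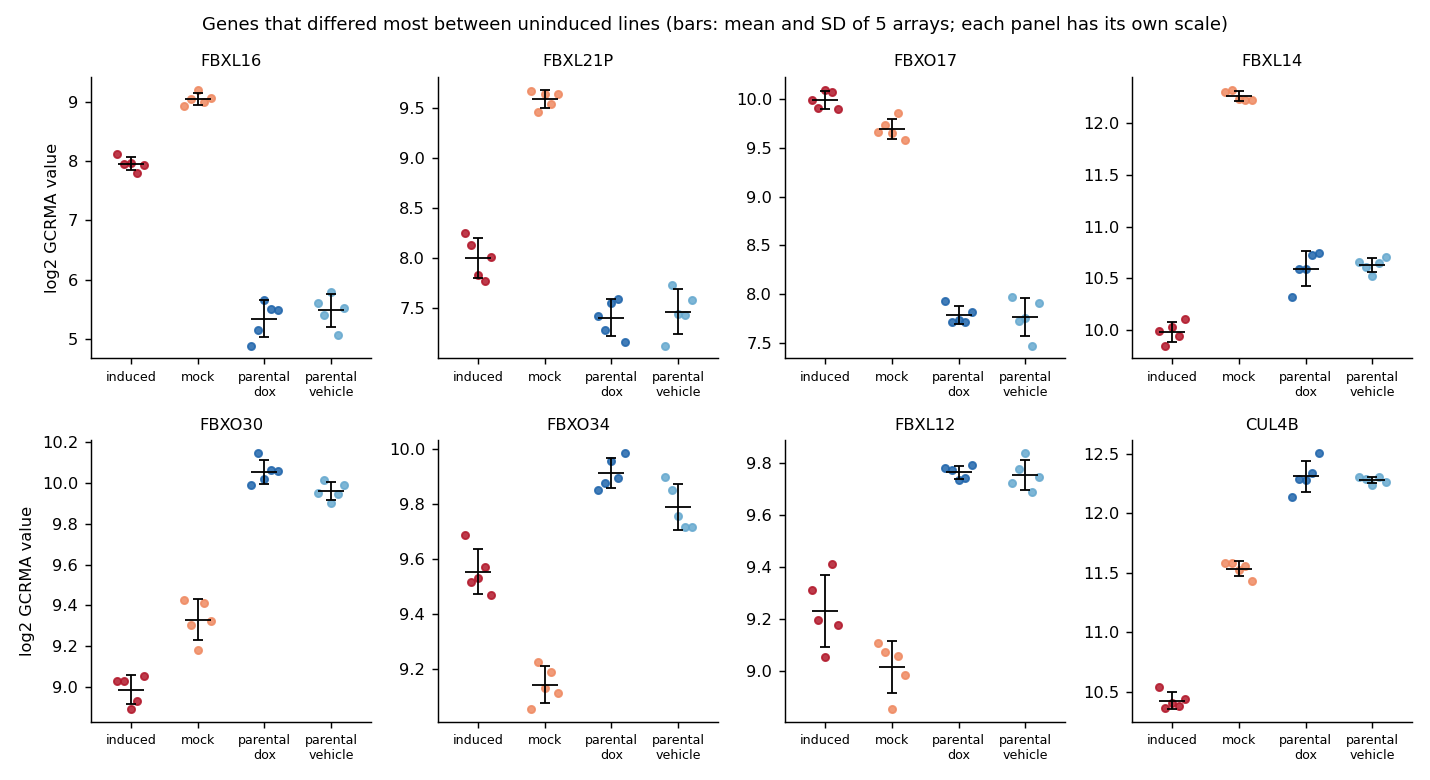
Log2 GCRMA level on each of 20 arrays, with the mean and SD of 5 arrays, for the 4 called genes most above and the 4 called genes below parental vehicle cells in the mock group. FBXL16, FBXL21P, FBXO17 and FBXL14 (top) are higher in mock arrays, and the 2 parental groups overlap in every panel.

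The other parts of the ligases were followed in a list of 50 genes, of which 46 were tested. Between induced and mock cells 6 of them fell and 19 rose (median 0.39), against the same 51.9% of all genes (23.1% lower, 28.8% higher). Each was read from its brightest probe set, and the other probe sets of these genes are not given here. COPS8, a COP9 signalosome subunit, fell by 2.61 ± 0.058 SE, from 12.35 to 9.74 (adjusted p = 1.55e-09). COPS7A, another subunit, fell by 1.68 (adjusted p = 1.35e-06), while 4 of the 11 genes of the deneddylation group rose. DCUN1D1, which helps to attach NEDD8 to cullins, fell by 1.57 (adjusted p = 6.71e-07), and of the 9 neddylation genes 2 fell and 1 rose. CAND2, a relative of the exchange factor CAND1, rose by 1.70 (adjusted p = 1.15e-08), and KLHL12, a BTB receptor of CUL3, by 1.74 (adjusted p = 6.46e-09). Among receptors of the other cullins 5 of 8 rose and 1 fell, among the enzymes of ubiquitin transfer 3 of 4 rose, and among F-box proteins with other symbols 2 of 5 rose. Of the 6 adaptors and RING subunits, 2 rose and 1 fell, and SKP1, which joins F-box proteins to CUL1, was not called (15.38 in induced, 15.29 in mock cells). In parental cells none of the 46 passed and 1 had an unadjusted p under 0.05. After centring on the poly-A controls 12 of the 46 were called, 8 lower and 4 higher, of which 10 were among the 25, and after centring on the hybridization controls 7 were called lower and 14 higher.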

How the data were processed

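RNA was amplified and hybridized to 20 human expression arrays (Affymetrix U133 Plus 2.0), 5 in each of 4 groups. The authors normalized the scans with GCRMA, and the deposited values are log2 levels per probe set. The version of GCRMA was not given in the sources used here. Dim probe sets often share 1 identical low value after GCRMA. Of 50441 probe sets, 75.5% named exactly 1 gene in the platform annotation and were used. The brightest probe set by its mean over 20 arrays stood for a gene. Groups were compared with limma 3.58.1 (lmFit and eBayes, R 4.3.3), each comparison fitted on its own 10 arrays and the interaction on all 20. A Bonferroni-adjusted p under 0.01 was called, over the 10834 genes whose mean exceeded 4.5 in 1 group or more. Probe sets were tested the same way over 18639 probe sets. The level filter and the threshold were taken from the study, but the study computed its p values with other software (Gene Pattern) and reported fewer changed genes after induction. Where every array of a group was under 4.5, the fold was taken against 4.5 and is given as at least that large.

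Replicates are the labels' separate samples. The number of arrays limits the precision of every value. The genes named were every cullin, the 8 largest falls and 8 largest rises among called genes whose groups did not overlap, the 4 largest called line differences each way, genes with a binding site or with opposite probe set calls, the gene with the smallest p in parental cells, and called pathway genes that changed by more than 1.5 on the log2 scale; the text says where a gene was named after its values were seen. Members and lists were chosen with earlier results of these data known. On simulated arrays with 10834 genes, induced against mock, the test recovered 23.9%, 76.1% and 97.0% of genes changed by 0.5, 1.0 and 2.0 on the log2 scale, with 0 false calls. Only 67, 67 and 66 genes were changed, and values were drawn independently from normal distributions. In the data 51.9% of genes passed and dim values repeat, so the simulation does not give the rate of false calls there. Alternatives were other probe set rules, filters, adjustments, centrings, spread models, a replicate block and leaving out each array. Python 3.11.15 (numpy 2.4.6, pandas 2.3.3, matplotlib 3.10.9) was used for the rest.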

Additional observations from a re-analysis of the deposited data

Results flagged for a closer look

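For 19 of 28 cullin and F-box genes checked, the difference between doxycycline and water itself differed between the lines (limma interaction, 20 arrays). Sort gate and cell density are part of this difference in the EGFP-ZFP36 line and cannot be told apart from the fusion protein. Most of the 28 had been named for the size of their differences in these same arrays. The difference between induced and mock cells is also a part of the interaction, so this count is not independent of the choice of genes. Of all 50 genes tested 30 passed, against 47.9% of all genes on the arrays that were tested. The doxycycline difference in the EGFP-ZFP36 line minus that in parental cells was negative for CUL2 (-1.48), CUL4A (-1.31), CUL4B (-1.14), CUL5 (-1.26), FBXL14 (-2.25), FBXL17 (-1.49), FBXL21P (-1.53), FBXO8 (-1.25) and FBXW11 (-2.19). It was positive for CUL3 (0.66), CUL9 (1.62), FBXO10 (2.11), FBXO16 (2.19), FBXO25 (1.60), FBXO31 (1.96), FBXO32 (1.95), FBXO42 (1.81), FBXW2 (1.41) and FBXW9 (1.70). The values of CUL3 and CUL4A hold for the brightest probe set, since the mean of all probe sets turned both over.

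Single arrays stood apart from the other 4 of their group in 8 of 132 groups checked with Dixon's test, which chance alone does in about 1 of 20. In mock arrays these were a CUL7 level of 6.32 (next 6.07), an FBXL6 level of 4.83 (next 4.38) and an FBXO42 level of 7.98 (next 7.64), each the highest of 5. In parental dox arrays FBXO10 reached 5.56 (next 5.42) and FBXO31 reached 8.79 (next 8.40). In parental vehicle arrays the lowest FBXO8 level was 8.84 (next 9.25) and the highest COPS8 level 12.72 (next 12.57), and in induced arrays the lowest DCUN1D1 level was 7.84 (next 8.06).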

How the results depend on the processing

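Over all alternatives, the values of named genes kept direction and side of the threshold 1707 times, lost the call 125 times, gained it 35 times and turned over 35 times, and the cause was not tested. Between induced and mock cells 32 of the 50 genes tested were called (13 lower, 19 higher), against 21 with no filter (11 higher, with more genes tested), 14 with a separate spread for each group (8 lower, 6 higher), and 12 higher after centring on poly-A controls, which lowers each difference by 0.362 (hybridization controls, by 0.117). With 1 array left out 26 to 29 were called. Of the cullin and F-box genes 43 were tested with the mean of all probe sets and 44 without probe sets marked _s, _x or _a. A mean above 6 left 48 of them. The median difference of 0.35 was 0.074 with the mean of all probe sets, 0.48 without probe sets marked _s, _x or _a, 0.035 with no filter, 0.24 after hybridization and -0.0074 after poly-A centring. In parental cells the median of 0.01 was 0.088 and -0.35 after these centrings. Between mock and parental vehicle cells 11 of the 50 genes tested were called (4 lower, 7 higher), against 28 by Benjamini-Hochberg adjustment (13 lower, 15 higher), 4 after poly-A centring (0 lower, 4 higher) and 2 with separate spreads (1 lower, 1 higher). The lower calls were 2 without marked probe sets, 2 after hybridization centring, 7 after median centring, 7 with trend and robust eBayes and 8 in 1 model of 20 arrays. With 1 array left out 7 to 11 were called (2 to 5 lower, 5 to 7 higher). The median of -0.01 was 0.042 with the mean of probe sets, 0.069 without marked probe sets, 0.025 with a mean above 6, -0.099, -0.049 and -0.062 after hybridization, poly-A and median centring, and -0.0098 to 0.045 with 1 array left out. Of the 50 genes 30 had a called interaction (11 lower, 19 higher), against 7 after poly-A centring (2 lower, 5 higher), and the higher calls were 12 with the mean of probe sets, 11 after hybridization centring and 12 with separate spreads. The interaction median of 0.28 was 0.022 with the mean of probe sets, 0.022 with no filter and 0.087 after hybridization centring. Of the 46 pathway genes tested 25 were called (6 lower, 19 higher), against 43 by Benjamini-Hochberg adjustment (11 lower, 32 higher), 12 after poly-A centring (4 higher, with 10 of the 12 among the 25) and 14 with separate spreads (10 higher). Their median of 0.39 was 0.30, 0.25, 0.27 and 0.029 with the mean of probe sets, without marked probe sets, and after hybridization and poly-A centring. Without marked probe sets 36 pathway genes were tested.

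Replicate numbers are shared by the groups, and per the study's methods treated and untreated cells were handled as pairs on each day, but the labels do not say that a number marks a pair or a day. Samples of 1 number deviated together only in part (r = 0.0155 to 0.220 in induced and mock arrays, and not every array matched its own number best), so the numbers were not taken as pairs. With the replicate block 22 of 50 genes were called between induced and mock cells, 4 between mock and parental vehicle cells (0 lower, 4 higher), 21 as interactions and 16 of the pathway genes (10 higher).

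Values of single genes turned over as follows. Between induced and mock cells the mean of probe sets gave CUL1 -0.50, CUL3 -2.06 and CUL4A 0.32, and the brightest unmarked probe set gave CUL1 -1.83 and CUL4A 1.30. Hybridization centring gave CUL7 -0.022 and FBXO5 -0.042, and poly-A centring gave CUL7 -0.27, FBXO5 -0.29, FBXO17 -0.064 and FBXL12 -0.15. Between mock and parental vehicle cells the unmarked probe set gave CUL1 0.47 and CUL4A -1.05, and hybridization centring gave CUL3 -0.0096. The interaction was -0.46 (CUL1), -2.06 (CUL3) and 0.27 (CUL4A) with the mean of probe sets, -1.66 (CUL1) and 1.26 (CUL4A) with the unmarked probe set, and -0.19 (CUL7), -0.18 (FBXO5) and -0.050 (FBXL6) after hybridization centring. It was -0.0089 for CUL7 after median centring, and with 1 array left out it ranged from -0.059 to 0.081 for CUL7 and from -0.016 to 0.086 for FBXO5.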
